A study of Sus scrofa with 12 samples.

Results

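ITGB3, PPBP, TUBB1, F13A1 and GP9 are 5 genes known from platelets, and they were followed over 12 libraries of pig blood mononuclear cells. They were chosen by their symbols and are 5 of the 7480 genes in the deposited table, each measured in every library. The labels put 4 libraries in each of 3 groups: non-treated control, treated with Salmonella (named as Salmonella Typhi in the study's description), and treated with a miR-124 sponge and Salmonella. Such a sponge is meant to take up its microRNA. All groups came from peripheral blood of healthy 4-week-old Duroc × Landrace × Yorkshire piglets and were collected 12 h after treatment. For this group the titles give miR-124 without the word sponge, which stands in the treatment labels. The labels do not tie a library to an animal or a sex, so the spread between libraries may be technical. An earlier account of these data had called these 5 genes higher with Salmonella than in control libraries, and so that contrast helped to choose them. It is described below without a test.

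Platelets are fragments that megakaryocytes shed into the blood. They carry RNA from the megakaryocyte, as well as adhesion receptors and granule proteins, and often stay with mononuclear cells during isolation. In infection they bind leukocytes, release chemokines and take part in clotting. ITGB3 encodes integrin beta 3, which pairs with ITGA2B as the platelet fibrinogen receptor and with ITGAV as the vitronectin receptor. GP9 encodes glycoprotein IX of the complex that binds von Willebrand factor. PPBP encodes the precursor of the granule chemokine CXCL7. TUBB1 encodes the beta tubulin of the platelet's marginal band. F13A1 encodes the A subunit of factor XIII, a transglutaminase that cross-links fibrin and is made by monocytes and macrophages too.

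In the pig annotation of RefSeq (Sscrofa11.1) ITGB3 lies on chromosome 12, from 16694466 to 16752228, and GP9 on chromosome 13, from 71558768 to 71565134. PPBP lies on chromosome 8, from 70021468 to 70022490. TUBB1 lies on chromosome 17, from 59161420 to 59168385, and F13A1 on chromosome 7, from 3751290 to 3900797. The 5 genes thus lie on 5 different chromosomes.

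The deposited values were on a log scale, taken as log2, from 2.13 to 15.01, and the depth behind them is unknown. Library medians ran from 5.11 to 5.31. A set of 190 symbols taken as silent in blood, such as olfactory receptors, had a mean of 4.62 and a 95th percentile of 5.002, and 60 of the 190 had an entry in the pig gene tables. Values near that level say little about expression, and folds that start from it are of uncertain size. Of all symbols in the table, 399 (5.33%) were absent from the pig gene tables. Values tied between genes made up 65.1% to 71.4% of each column of the sponge group and at most 0.0802% of any other column, so treatment and kind of column cannot be told apart. That the values come from sequencing of these pig libraries rests on the labels. The level near which silent genes lie, the ties and the symbols without a pig entry leave it uncertain, and it was not tested. Among the 5 genes, only ITGB3 in sponge plus Salmonella replicates 1 and 3 had a tied value. It is not known whether the values are scaled by gene length, so levels are not compared between genes.

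The label of platelet genes was checked against other genes of the same cells. PF4, the platelet granule chemokine CXCL4, had values from 4.36 to 5.21, at or near the level of silent genes in all 12 libraries. GP5, a partner of glycoprotein IX, ranged from 4.45 to 5.67. GP1BA, the von Willebrand factor binding chain of the same complex, ranged from 6.18 to 7.13. Of 68 other measured platelet and megakaryocyte genes, 12 had a mean below 5.002 in every group, among them PF4, the ADP receptor gene P2RY1 and the thromboxane receptor gene TBXA2R. ITGA2B, GP1BB and F13B were not analysed here. PPBP, TUBB1, F13A1 and GP9 stood well above silent genes in every library. ITGB3 stood above 5.002 only in the treated groups, with 5.45 in Salmonella replicate 4 as its lowest value there. The labels name mononuclear cells, but some genes of red cells were high as well, with the haemoglobin gene HBA2 from 13.76 to 15.01. Others of that list were not, such as FECH and EPOR, with control means of 4.28 and 4.69 at the silent level. The T cell receptor chain gene CD3D, with a mean of 4.29 in control libraries, was at the silent level there, while CD3E stood at 7.79. The labels also say that RNA was taken with a PAXgene kit. In such bulk samples more platelets and more RNA per platelet cannot be told apart.

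ITGB3 was the gene with the clearest steps between groups. Its control values were 4.52, 4.79, 4.89 and 4.34 in replicates 1 to 4. With Salmonella they were 5.98, 5.72, 6.48 and 5.45, and with sponge plus Salmonella 6.59, 6.86, 7.09 and 7.62. All control values lay below 5.002, so the gene was not distinguished from silent genes there, and the 3 groups did not overlap. The means were 4.63 ± 0.25, 5.91 ± 0.44 and 7.04 ± 0.44 (SD, n = 4). A rise from control to Salmonella to sponge plus Salmonella with no overlap was found for 29 of all 7480 genes (0.388%) and for 0 of the 68 other platelet and megakaryocyte genes. The step from control to Salmonella helped to choose ITGB3, so nothing is read from how rare this order was.

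TUBB1 followed the same order of means. The control values were 9.53, 9.56, 10.42 and 9.74, and the Salmonella values 10.58, 10.22, 10.60 and 10.75. Control replicate 3 reached into the Salmonella range. With sponge plus Salmonella the values were 11.101, 11.20, 11.19 and 11.15, all above every other library, with a mean of 11.16 and an SD of 0.043 (n = 4). The control mean was 9.81 ± 0.42 and the Salmonella mean 10.53 ± 0.23 (SD, n = 4).

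PPBP had another order, with the highest mean in Salmonella libraries. Its control values of 11.53, 11.50, 11.38 and 11.09 were the lowest of the 3 groups. The Salmonella values were 12.09, 11.85, 13.26 and 12.84, so replicates 3 and 4 stood above the other pair. The sponge plus Salmonella values were 11.63, 11.88, 12.17 and 12.44, above all control libraries and overlapping the Salmonella range. Means were 11.38 ± 0.20 in control, 12.51 ± 0.65 in Salmonella and 12.03 ± 0.35 in sponge plus Salmonella libraries (SD, n = 4).

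F13A1 and GP9 had smaller shifts beside their spread. F13A1 stood at 7.96, 8.56, 8.84 and 8.42 in control and at 8.84, 8.62, 9.43 and 9.32 in Salmonella libraries. Control replicate 3 thus lay above Salmonella replicate 2. With sponge plus Salmonella it was 8.72, 9.01, 9.17 and 9.13. For GP9 the control values were 10.09, 9.46, 9.23 and 9.34, the first of which lay above Salmonella replicates 1 and 2. Its Salmonella values were 9.87, 9.83, 10.59 and 10.52. The sponge plus Salmonella values of GP9, at 10.11, 9.54, 9.95 and 10.45, overlapped those of each other group.

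**Figure D1:**
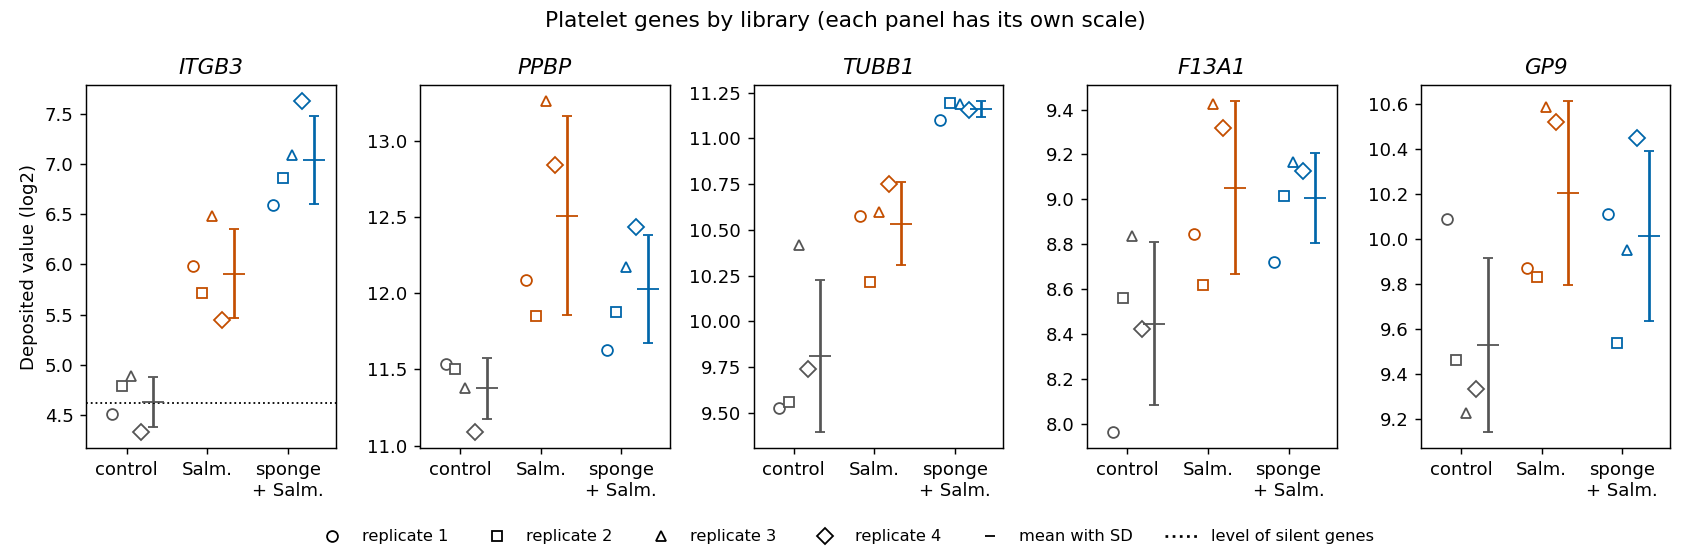
Deposited log2 values of the 5 platelet genes in each library, by group, with replicate numbers as symbols, the mean and SD as bars, and the level of silent genes (4.62) as a dotted line in the first panel; each panel has its own vertical scale. The groups of ITGB3 do not overlap, the 4 sponge plus Salmonella libraries of TUBB1 lie between 11.101 and 11.20, and PPBP, F13A1 and GP9 have their highest single values in Salmonella replicate 3.

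Between Salmonella and control libraries the log2 difference was 1.28 ± 0.28 (SE) for ITGB3 and 1.13 ± 0.27 for PPBP. It was 0.72 ± 0.19 for TUBB1, 0.67 ± 0.24 for GP9 and 0.60 ± 0.22 for F13A1. On a linear scale these are 2.42-fold, 2.19-fold, 1.65-fold, 1.59-fold and 1.52-fold. The fold of ITGB3 starts from the silent level and is of uncertain size. The ranges did not overlap for ITGB3 and PPBP, upward in each case. Over all genes 35.6% had ranges apart, 15.7% upward and 19.9% downward, and limma called 15.7% higher and 17.9% lower. Nothing is read from the calls of the 5 genes here. With 1 library left out in turn, the difference ran from 0.44 to 0.75 for F13A1 and from 0.54 to 0.86 for GP9.

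The sponge libraries were next set against Salmonella alone. No group had the sponge without Salmonella, and none had a control sponge. Because of the tied values, treatment and kind of column cannot be told apart in this contrast, so its differences are not credited to the sponge itself. The same Salmonella libraries stood in the contrast that helped to choose the genes, which favours lower differences here. Estimates below 0 may therefore be too low. ITGB3 and TUBB1 were higher with the sponge, and PPBP, F13A1 and GP9 did not pass the test. Of the 5 genes 2 were thus called higher and 0 lower, where limma called 11.9% of all genes higher and 13.2% lower (25.0% in all). Because of the choice of genes, nothing is read from this count. The ranges of all genes were apart in 23.8%, 10.6% upward and 13.2% downward. ITGB3 rose by 1.13 ± 0.28 log2 units (SE, n = 4 per group), a 2.19-fold difference with a 95% interval from 1.45 to 3.31 (limma, Benjamini-Hochberg adjusted p = 0.0101). All 4 sponge libraries were above all 4 Salmonella libraries. When ranks within each library replaced the values, as normal scores, this call ended (limma adjusted p = 0.271), and no single left-out library ended it.

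TUBB1 rose by 0.62 ± 0.19 log2 units with the sponge, 1.54-fold with a 95% interval from 1.17 to 2.03 (limma adjusted p = 0.02501), and its 4 sponge libraries also lay above all Salmonella libraries. Leaving out sponge plus Salmonella replicate 2, 3 or 4, or Salmonella replicate 2, ended the call (limma adjusted p from 0.0509 to 0.0805). For PPBP the difference was -0.48 ± 0.27, with a 95% interval from -1.05 to 0.09 (limma adjusted p = 0.195). For GP9 it was -0.19 ± 0.24, with an interval from -0.71 to 0.33 (limma adjusted p = 0.581). For F13A1 it was -0.04 ± 0.22, with an interval from -0.51 to 0.42 (limma adjusted p = 0.896). Each of these intervals holds 0 together with changes larger than the estimate. With 1 library left out the difference of PPBP ran from -0.70 (without Salmonella replicate 2) to -0.23 (without Salmonella replicate 3). That of GP9 ran from -0.34 (without sponge plus Salmonella replicate 4) to -0.033 (without sponge plus Salmonella replicate 2).

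Against control, sponge plus Salmonella libraries had higher ITGB3 and TUBB1. ITGB3 rose by 2.41 ± 0.28 log2 units (limma adjusted p = 6.3e-05), again from the silent level. TUBB1 rose by 1.35 ± 0.19 log2 units, 2.55-fold with a 95% interval from 1.93 to 3.36 (limma adjusted p = 0.000139). Of the 5 genes 2 were called higher, where 17.9% of all genes were, with 23.0% lower. The same control libraries stood in the contrast that helped to choose the genes, which favours higher differences here. Nothing is therefore read from this count, and the adjusted p of this comparison may be too small. PPBP differed by 0.65 ± 0.27 (limma adjusted p = 0.0632), F13A1 by 0.56 ± 0.22 (0.0508) and GP9 by 0.48 ± 0.24 (0.124), all above 0 and short of the threshold of 0.05. PPBP libraries of the sponge group nonetheless lay above all control libraries, with 11.63 as the lowest against 11.53 as the highest control value, and ranges were apart upward for 17.3% and downward for 22.5% of all genes (39.7% in all). PPBP passed without sponge plus Salmonella replicate 1 (limma adjusted p = 0.0397), F13A1 without that library or control replicate 3 (0.0256 to 0.0366), and GP9 without control replicate 1 (0.0438). Quantile normalization brought all 3 past the threshold, at 0.0182, 0.0288 and 0.0459. The 3 comparisons share groups of libraries pairwise, so a gene's 3 differences are not independent of each other.

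**Figure D2:**
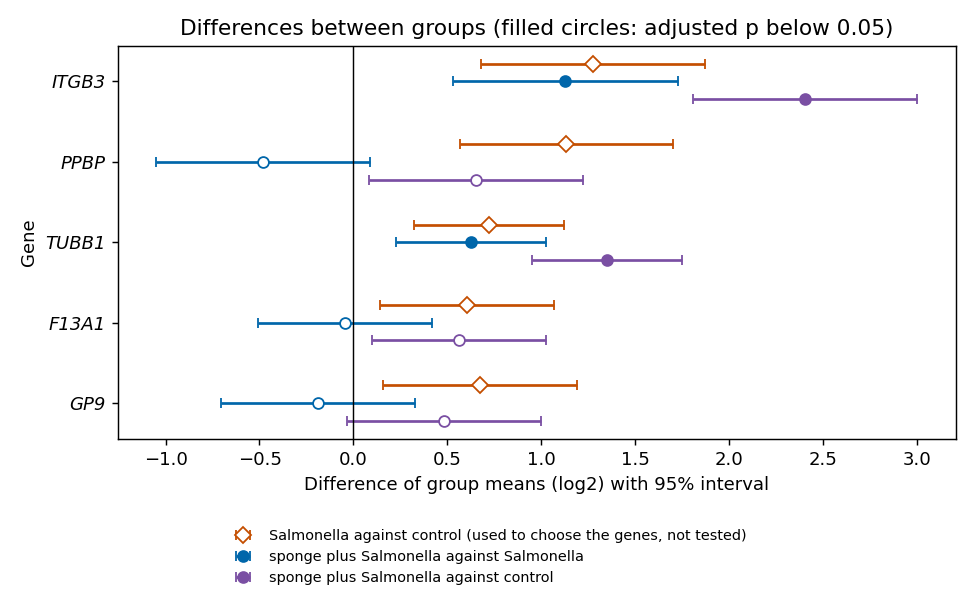
Differences of group means in log2 units with 95% intervals from limma for the 5 genes in 3 comparisons; diamonds mark the contrast that helped to choose the genes, and filled circles an adjusted p below 0.05 in the others. With the sponge against Salmonella alone, ITGB3 (1.13) and TUBB1 (0.62) lie above 0, while the intervals of PPBP, F13A1 and GP9 include 0.

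Differences between the values of 2 of the 5 genes in the same library were looked at for some pairs. ITGB3 lay at the silent level in control libraries, so its difference there is not read as a ratio. ITGB3 minus PPBP within a library ran from -7.02 to -6.49 in control, from -7.39 to -6.10 in Salmonella and from -5.09 to -4.82 in sponge plus Salmonella libraries, with the last group apart from both others. TUBB1 minus F13A1 ran from 0.998 to 1.58, from 1.17 to 1.73 and from 2.02 to 2.38 in the same order of groups, again with the sponge group apart. For the other 4 differences looked at, the sponge group overlapped at least 1 other group. TUBB1 minus PPBP ran from -2.01 to -0.96 in control, from -2.66 to -1.51 in Salmonella and from -1.28 to -0.53 in sponge libraries, the last apart from Salmonella alone. TUBB1 minus GP9 ran from -0.56 to 1.19, from 0.011 to 0.706 and from 0.708 to 1.66, with sponge and Salmonella libraries just apart. PPBP minus GP9 (from 1.45 to 2.15, from 2.02 to 2.67 and from 1.52 to 2.34) and PPBP minus F13A1 (from 2.54 to 3.57, from 3.24 to 3.83 and from 2.86 to 3.31) had all 3 groups overlapping. These differences were not tested, and no share over other pairs of genes stands beside them. Because of the tied values, treatment and kind of column cannot be told apart where the sponge group stood apart.

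Libraries of 1 group also differed in a shared way. Salmonella replicates 3 and 4 had higher values than replicates 1 and 2 for PPBP, F13A1, GP9 and, by a narrow margin, TUBB1. This order, looked for after the values were seen, held for 24 of the 68 other platelet and megakaryocyte genes (35.3%) and for 1267 of all 7480 genes (16.9%). ITGB3 did not have this order, since Salmonella replicate 4 was its lowest. Control replicate 1 was the highest control library for PPBP and GP9 and the lowest for TUBB1 and F13A1.

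The wider set of platelet and megakaryocyte genes moved in both directions. Of 152 genes listed by role, 68 were measured besides the 5. Between Salmonella and control libraries 15 of the 68 were higher, 7 lower and 46 not called by limma, with a median log2 difference of 0.13 beside -0.02 for all genes. That is 32.4% called, where 33.6% of all genes were called in either direction. With the sponge against Salmonella 7 were higher and 14 lower, with a median of -0.06 beside -0.04 for all genes, and 30.9% were called against 25.0% of all genes. Without Salmonella replicate 4 this count was 5 higher and 8 lower. With the sponge against control 13 were higher and 14 lower, with a median of -0.02 beside -0.07, and 39.7% were called against 40.9% of all genes.

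The counts by role below stand beside 33.6% of all genes called with Salmonella, 25.0% with the sponge against Salmonella and 40.9% with the sponge against control, and beside the medians of all genes just given. Among 17 measured surface receptors, 2 were higher and 2 lower with Salmonella (23.5% called, median 0.17). With the sponge 2 were higher and 1 lower against Salmonella (17.6%, median 0.02), and 1 higher and 1 lower against control (11.8%, median 0.11). P2RY12, the ADP receptor targeted by antiplatelet drugs, rose by 2.095 ± 0.37 log2 units with Salmonella and was lower by 1.69 ± 0.37 with the sponge than with Salmonella alone (limma adjusted p = 5.99e-04 and 0.00491). Its values were 4.95, 5.66, 5.03 and 5.91 in control, 6.83, 7.50, 7.29 and 8.31 in Salmonella, and 5.86, 6.56, 4.95 and 5.80 in sponge libraries, so only the Salmonella group stood apart. P2RY12 thus moved in the opposite direction to ITGB3 with the sponge. F11R, the junctional adhesion molecule A gene, had the same order of group means as ITGB3, with 2.28 ± 0.50 with Salmonella, a further 1.77 ± 0.50 with the sponge and 4.05 ± 0.50 between sponge and control (limma adjusted p = 0.00292, 0.0200 and 7.9e-05). Its control mean of 4.85 lay at the silent level, so the first and last sizes are uncertain. The second of these calls ended without sponge plus Salmonella replicate 3 or Salmonella replicates 2 or 4 (0.0605 to 0.0652) and with normal scores of ranks (0.346). CD84, a homophilic receptor of platelets and leukocytes, fell by 0.83 ± 0.21 with Salmonella and was higher by 0.78 ± 0.21 with the sponge than with Salmonella.

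Of 13 measured granule contents, 2 were higher and 0 lower with Salmonella (15.4% called, median -0.01). With the sponge 0 were higher and 4 lower against Salmonella (30.8%, median -0.38), and 0 higher and 2 lower against control (15.4%, median -0.16). TIMP1, a metalloproteinase inhibitor, fell by 0.73 ± 0.18 log2 units with the sponge (limma adjusted p = 0.0108), a call that ended under quantile normalization (0.0858) and with normal scores (0.0852). PF4 was also called lower (adjusted p = 0.0455), but it lay near silent genes in all 3 groups and its size is left out. That call ended without any 1 of sponge plus Salmonella replicates 1, 2 or 3 or Salmonella replicates 2 or 4 (0.0807 to 0.122), without the variance trend (0.0666) and with only the 2 groups compared (0.0886).

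Among 7 measured cytoskeleton genes, 2 were higher and 1 lower with Salmonella (42.9% called, median 0.45). With the sponge 3 were higher and 1 lower against Salmonella (57.1%, median 0.32), and 4 higher and 1 lower against control (71.4%, median 0.69). TUBA4A, an alpha tubulin that pairs with beta tubulins such as TUBB1, was at 9.50, 10.24, 10.19 and 10.03 in sponge libraries, above all others. It rose by 2.20 ± 0.47 log2 units against Salmonella and 3.32 ± 0.47 against control (limma adjusted p = 0.00437 and 0.000156). MYL9, a myosin light chain gene, rose by 1.12 ± 0.20 with Salmonella and 1.45 ± 0.20 with the sponge against control, in both cases from a control mean of 4.41 at the silent level. BIN2, a membrane-shaping protein gene, had control values near 3.8 and was higher by 1.12 ± 0.38 with Salmonella (limma adjusted p = 0.0333). The call for BIN2 ended without any 1 control library or without Salmonella replicates 1 or 3 (0.0525 to 0.0740), and its size fell to 0.65 without Salmonella replicate 1. It also ended without the variance trend (0.0567) and with only the 2 groups compared (0.0588). PDLIM1 fell by 0.92 ± 0.15 with Salmonella and was called higher with the sponge than with Salmonella. Its means were 8.66 in control, 7.74 in Salmonella and 8.60 in sponge plus Salmonella libraries. TLN1, whose product talin binds the tail of beta integrins, fell by 0.73 ± 0.15 with the sponge against Salmonella.

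Of 13 measured signalling genes, 4 were higher and 1 lower with Salmonella (38.5% called, median 0.45). With the sponge 1 was higher and 3 lower against Salmonella (30.8%, median -0.05), and 5 higher and 3 lower against control (61.5%, median 0.55). FCER1G, the signalling chain of the collagen receptor complex and of Fc receptors in myeloid cells, rose by 1.74 ± 0.25 log2 units with Salmonella and was lower by 1.68 ± 0.25 with the sponge than with Salmonella. PDE5A, a cyclic GMP phosphodiesterase, rose by 1.38 ± 0.23 and was then lower by 0.83 ± 0.23. The fall of PDE5A was lost without sponge plus Salmonella replicate 3 or Salmonella replicate 4 (limma adjusted p 0.0536 to 0.0626). GNA13, a G protein alpha subunit, rose by 2.28 ± 0.57 with Salmonella and 4.17 ± 0.57 with the sponge against control, starting from a control mean of 4.44, below the mean of silent genes.

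Of 8 measured genes of granule release, 4 were higher and 1 lower with Salmonella (62.5% called, median 0.59). With the sponge 1 was higher and 3 lower against Salmonella (50%, median -0.30), and 3 higher and 1 lower against control (50%, median -0.13). STX11, a syntaxin used by platelets and cytotoxic cells for secretion, rose by 4.11 ± 0.29 log2 units with Salmonella and was lower by 2.05 ± 0.29 with the sponge than with Salmonella (limma adjusted p = 5.9e-07 and 4.1e-04). NBEAL2, needed for alpha granules, rose by 2.02 ± 0.22 with Salmonella. Of 6 measured megakaryocyte transcription factors, 1 was higher and 1 lower with Salmonella (33.3% called, median -0.28). With the sponge 0 were higher and 2 lower against Salmonella (33.3%, median -0.23), and 0 higher and 3 lower against control (50%, median -0.28). ETV6 rose by 0.89 ± 0.15 with Salmonella, and ZFPM1, the cofactor of GATA1, fell by 1.15 ± 0.22 with the sponge against control. Of 4 other platelet transcripts, 0 were higher and 1 lower with Salmonella (25%, median -0.24). With the sponge 0 were called against Salmonella (0%, median -0.29), and 0 were higher and 3 lower against control (75%, median -0.48).

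**Figure D3:**
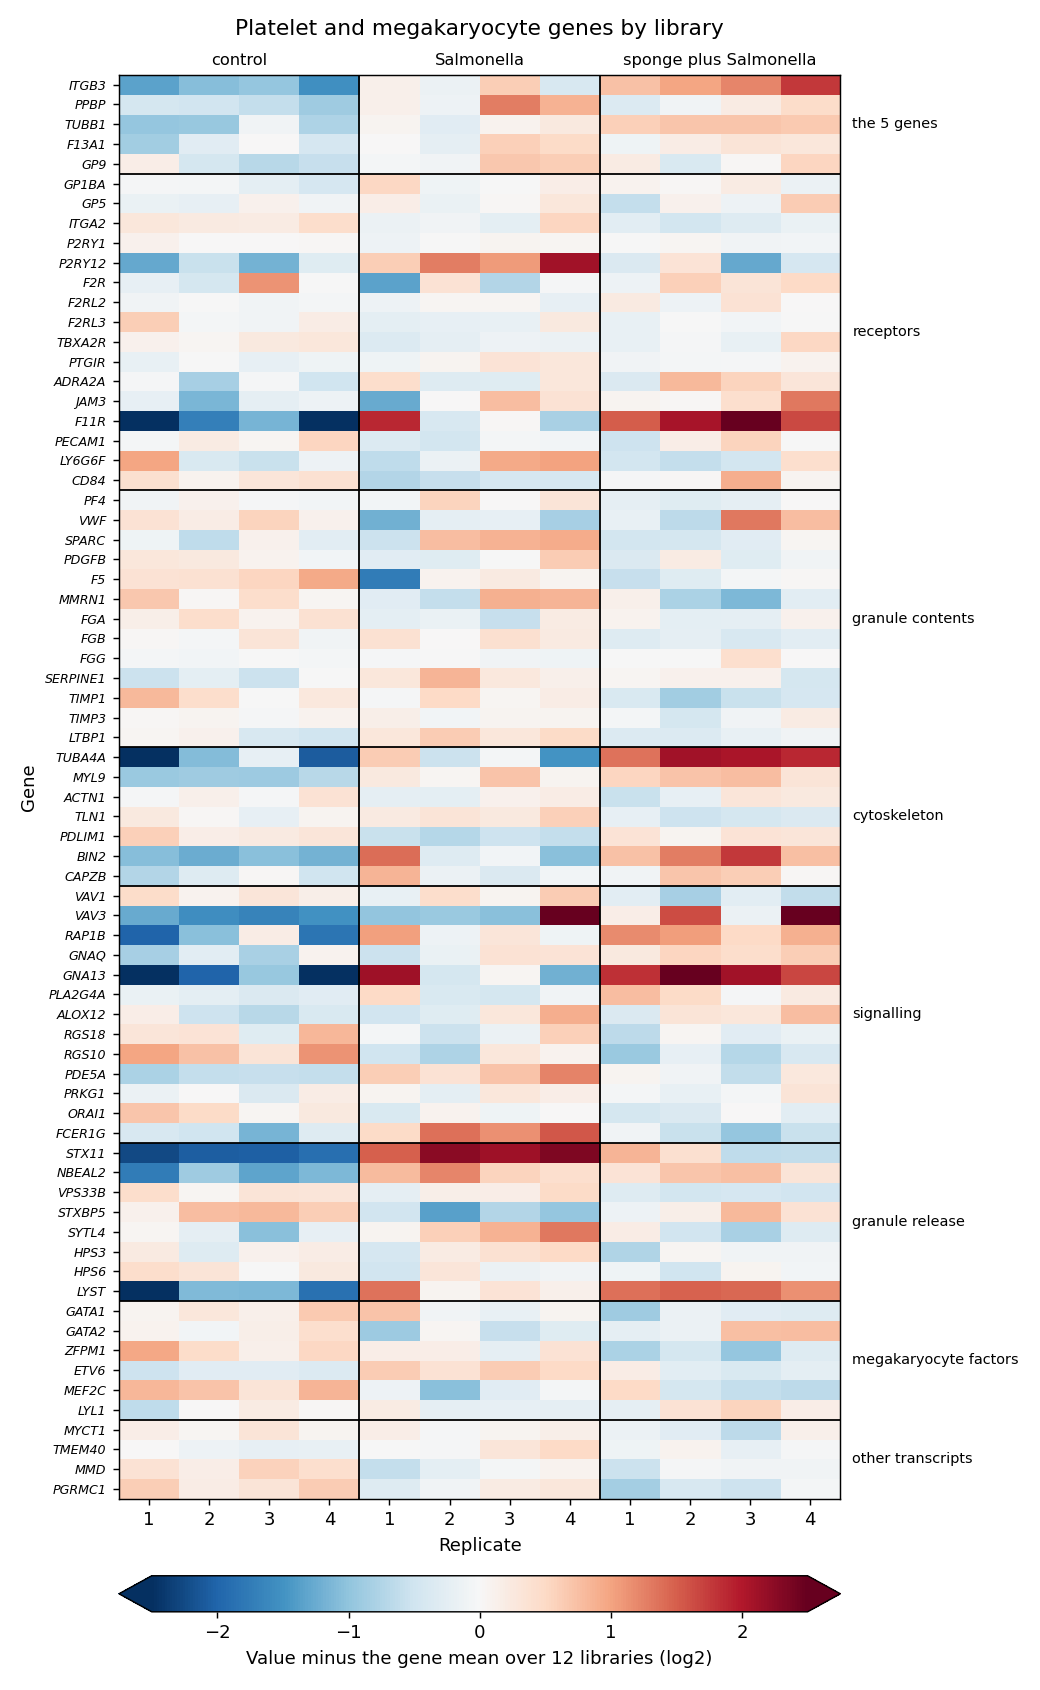
Values of the 5 genes and of other measured platelet and megakaryocyte genes in each library, each minus the gene's mean over the 12 libraries, in log2 units (red above, blue below the mean; colours end at the marks on the scale). Genes are grouped by role and libraries by group; ITGB3, F11R, TUBA4A and GNA13 have their lowest means in control libraries, while P2RY12, FCER1G and STX11 are highest in Salmonella libraries.

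The gene families of the 5 were measured in part. Their counts stand beside the same shares of all genes as the counts by role above. Of integrin genes, 4 of 8 listed were measured, with 0 called by limma with Salmonella and 0 at an unadjusted p below 0.05. ITGAV, the other partner of ITGB3, ranged from 4.83 to 6.95. With the sponge against Salmonella 1 was higher and 1 lower. ITGB5, at 5.64, 6.22, 6.32 and 6.28 with Salmonella and at 4.88, 5.16, 4.50 and 5.49 with the sponge, was lower by 1.11 ± 0.29 log2 units (limma adjusted p = 0.0147), down to the silent level, so the size is uncertain. This call held under every alternative run. ITGB1, whose Salmonella mean of 4.65 lay near silent genes, was higher by 0.74 ± 0.25 log2 units with the sponge against Salmonella (limma adjusted p = 0.0441), a call that ended without any 1 library of these groups other than sponge plus Salmonella replicate 1 and Salmonella replicate 2 (0.0541 to 0.112), and whose size fell to 0.43 without Salmonella replicate 1. It also ended without the variance trend (0.0678), with only the 2 groups compared (0.0883), and under median centring (0.0535), quantile normalization (0.0547) and normal scores (0.205). Of transglutaminases, 4 of 7 were measured. TGM2, the tissue transglutaminase, rose by 4.28 ± 0.35 with Salmonella and was lower by 2.92 ± 0.35 with the sponge than with Salmonella (limma adjusted p = 1.6e-06 and 0.000159). Its control mean of 4.85 lay at the silent level, so the first size is uncertain. Of 15 measured genes of coagulation and fibrinolysis, 3 were higher and 2 lower with Salmonella (33.3% called, median 0.17), and 1 was higher and 4 lower with the sponge against Salmonella (33.3%, median -0.08). F12, the gene of coagulation factor XII, fell by 2.08 ± 0.27 both with Salmonella and with the sponge, each against control. Of 7 other beta tubulins listed, 2 were measured. Of these 1 was called by limma, TUBB2A, higher with the sponge against control from a control mean of 4.64 at the silent level. Of 4 measured CXC chemokines, PF4 among them, 1 was higher and 1 lower with Salmonella (50% called). CXCL2, the higher one, had a control mean of 4.44, and CXCL6, the lower one, a Salmonella mean of 4.55, both at the silent level.

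Markers of other blood cells moved between the groups as well. Of all genes 33.6% were called with Salmonella (15.7% higher, 17.9% lower). With the sponge 25.0% were called against Salmonella (11.9% higher, 13.2% lower) and 40.9% against control. Of 10 measured monocyte markers 7 were higher and 0 lower with Salmonella (70% called). With the sponge against Salmonella 0 were higher and 6 lower (60%). The mean of the monocyte list ran from 8.39 to 8.98 in control, from 10.17 to 10.34 in Salmonella and from 9.28 to 9.80 in sponge plus Salmonella libraries. The log2 of its summed level ran from 14.75 to 14.94, from 15.14 to 15.34 and from 14.69 to 15.04. The mean of the list was highest with Salmonella, and so were those of the red cell and neutrophil lists. PPBP, F13A1 and GP9 also had their highest means there, but none of them was called between sponge and Salmonella libraries. The means of F13A1 were 9.05 with Salmonella and 9.01 with the sponge. ITGB3 and TUBB1 had their highest means with the sponge. Of 13 T cell markers 12 were lower and 0 higher with Salmonella (92.3% called), and 11 were higher with the sponge against Salmonella (84.6%). B cell markers, 5 in all, were lower with Salmonella and higher with the sponge against Salmonella, all 5 in each case. Of 4 natural killer cell genes 3 were lower with Salmonella (75% called), as were 2 of 5 dendritic cell genes (40%), with 0 higher in each list. The dendritic share stands near the 33.6% of all genes, so nothing is read from it.

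The counts here stand beside the shares of all genes just given. Of 9 red cell genes 2 were higher and 0 lower with Salmonella (22.2% called). With the sponge against Salmonella 0 were higher and 3 lower (33.3%). The list means of red cell genes ran from 7.88 to 8.46, from 8.54 to 9.24 and from 7.49 to 9.02 in control, Salmonella and sponge libraries. Of 8 neutrophil genes 2 were higher and 2 lower with Salmonella, with list means from 6.59 to 7.13, from 6.55 to 7.85 and from 6.17 to 6.69. Of 6 endothelial genes, 0 were called by limma in any of the 3 comparisons, with 2, 3 and 0 at an unadjusted p below 0.05, and CDH5 and EMCN lay below silent genes in all groups. No value in the table was 0, so no marker was at 0. The part of these other cells in the differences of the 5 genes was not tested.

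**Figure D4:**
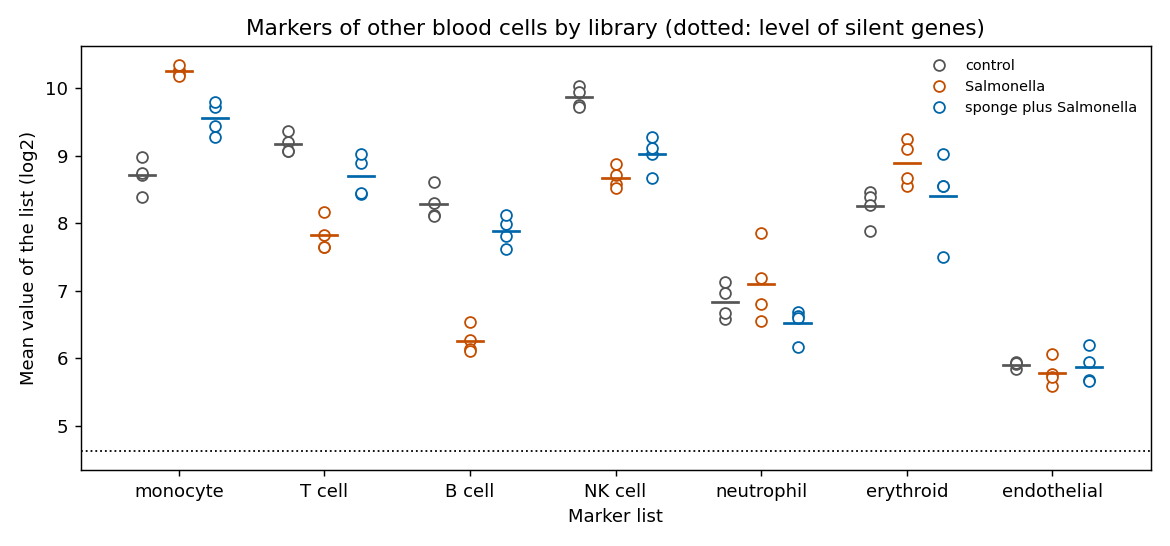
Mean log2 value of each list of markers of other blood cells in each library, by group, with lines for group means and the level of silent genes (4.62) dotted. The monocyte list is highest in Salmonella libraries (10.17 to 10.34) and the T and B cell lists are lowest there.

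The genes most like each of the 5 were sought over the 12 libraries by the root mean square difference of values centred on each gene's mean. For ITGB3 they were ABCC4, MRPL48, CASP6, OSBPL11 and ABHD15, at 0.30 to 0.39 log2 units, where ITGB3 itself varied by 1.04 about its mean. For PPBP they were SLC24A3, STX17, TMEM38A, PTN and UBQLNL, at 0.31 to 0.33, followed in place 6 by GP9 and in place 12 by F13A1. For TUBB1 they were SHOC2, CAV1, DHX40, RFC2 and EPOR, at 0.23 to 0.28. For F13A1 they were RSBN1L, CHST1, RNF8, SCAF1 and ZER1, at 0.19 to 0.25, and for GP9 TMEM38A, BUB1, PSMD6, PTN and KCNE3, at 0.24 to 0.27. TMEM38A and PTN, which appear for both PPBP and GP9, had control means of 4.41 and 4.50, below the mean of silent genes. Control means below 5.002, the 95th percentile of silent genes, were common among these genes. Every gene named for PPBP had one. So did all those named for ITGB3 but OSBPL11, for TUBB1 but SHOC2, and for GP9 but PSMD6. Of those named for F13A1 only SCAF1 did. The nearest of the 5 to ITGB3 was TUBB1, in place 115, while PPBP was in place 895.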

How the data were processed

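Per the labels, expression was measured by RNA sequencing in 12 libraries, 4 per group. The values themselves leave it uncertain that they come from sequencing of these libraries. The study's groups and replicate numbers were taken from the sample titles. The values deposited by the authors are on a log2 scale. No source states the base, and 2 was assumed. The tools Bowtie and R 3.4.2 and the build Sscrofa11.1 are named per the submitters' processing notes. How reads were counted, normalized and filtered is not given in the sources used here. Read counts were not used, so depth and counting error are unknown.

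Group means of all 7480 genes over the 12 libraries were fitted with limma 3.58.1 (R 4.3.3), using a variance trend, and the script was tested on simulated data. A gene was called where its p, adjusted over the whole table by Benjamini-Hochberg, lay below 0.05. The 5 genes, the gene lists, and the rule for names were chosen with earlier results of these data known. Named list genes are among the at most 4 called members of a list and comparison with the smallest p, besides direct partners of the 5. CD3D, CD3E, HBA2, P2RY1, TBXA2R, FECH, EPOR, CDH5 and EMCN were chosen outside that rule after their values were seen. The values of 1 gene counted in the lists are not reported here. The silent level is the mean over olfactory receptor, keratin-associated, taste receptor, crystallin, defensin and PRAME family symbols. Alternatives were other variance models, scalings, filters, a replicate block and leaving out libraries, and, chosen after seeing the data, only symbols in the pig gene tables.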

Additional observations from a re-analysis of the deposited data

Results flagged for a closer look

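In 5 of 87 groups of 4 libraries tested, over the 5 platelet genes and 24 other named genes, 1 library stood apart from the other 3 by a gap larger than the critical value of Dixon's test. Chance alone marks about 1 in 20 groups. None of the 15 groups of ITGB3, PPBP, TUBB1, F13A1 and GP9 was among them. CD84 was at 8.08 in sponge plus Salmonella replicate 3, above the other 3. MYL9 was at 4.58 in control replicate 4, above the others but still below the level of silent genes. PDE5A was at 6.16 in control replicate 1 and ITGB1 at 4.24 in control replicate 3, each below the others. ITGB5 was at 5.64 in Salmonella replicate 1, also below the other 3.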

How the results depend on the processing

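Over the alternatives, ITGB3 and TUBB1 kept their direction in all 3 comparisons. Their calls with the sponge against Salmonella did not hold under every alternative, and PPBP, F13A1 and GP9 had limits too. For Salmonella against control, where the 5 genes are described and not tested, the log2 difference of GP9 was 0.67 without the variance trend, 0.67 with only the 2 groups compared and 0.58 under median centring. That of F13A1 was 0.60 with only the 2 groups and 0.52 under median centring. Leaving out 1 library gave 0.44 to 0.75 for F13A1 and 0.54 to 0.86 for GP9. For sponge plus Salmonella against Salmonella, ITGB3 was not called with normal scores of ranks (0.33, in score units). F13A1 turned to 0.041 under quantile normalization and to 0.013 with normal scores, and ran from -0.19 to 0.081 with 1 library left out, turning to 0.051 without sponge plus Salmonella replicate 1, 0.081 without Salmonella replicate 3 and 0.045 without Salmonella replicate 4. TUBB1 ran from 0.52 to 0.70, and the count of called platelet and megakaryocyte genes from 13 to 25, with 1 library left out. The call of TUBB1 ended in 4 of 8 such fits. For sponge plus Salmonella against control, PPBP passed with only the 2 groups (0.65), quantile normalization (0.87) and normal scores (0.32). F13A1 passed with only the 2 groups (0.56), quantile normalization (0.64), normal scores (0.22), the filter on a mean of at least 5 (0.56) and only symbols in the pig gene tables (0.56), and GP9 with quantile normalization (0.61) and normal scores (0.21). With 1 library left out, PPBP ran from 0.52 to 0.78, F13A1 from 0.40 to 0.69 and GP9 from 0.34 to 0.67. The cause was not tested. Median centring moved the median difference of all genes by -0.12 in this comparison and changed the share of called genes that were higher from 43.7% to 29.2%, and from 46.8% to 35.2% for Salmonella against control. Deviations of same-numbered libraries from their group means had correlations from -0.360 to 0.377, so the main fit did not pair them. These values cannot decide whether such libraries share an animal or a batch, which the labels do not say. With a replicate block 2371, 1706 and 2907 genes were called in the 3 comparisons in place of 2513, 1873 and 3057, F13A1 passed against control with the sponge (0.56), and no other of the 5 genes changed its call. Unknown depth limits what can be said of genes near the silent level, ITGB3 in control libraries included.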
